A study of Mus musculus with 4 samples.

Results

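Copy number was measured at 9 genes that encode abundant plasma proteins, in 4 mouse liver tumours. The genes were albumin (Alb), alpha-fetoprotein (Afp), the apolipoprotein genes Apoa1, Apob and Apoe, transferrin (Trf), transthyretin (Ttr), the fibrinogen alpha chain (Fga) and alpha-2-HS-glycoprotein, or fetuin A (Ahsg). They were chosen by name from the gene names on the array, where Alb1, an older name for albumin, had no probe. They held 14 probes, 2 each for Alb, Afp, Apob, Trf and Ahsg and 1 each for Apoa1, Apoe, Ttr and Fga, of 169093 placed probes and 22150 genes in all. The naming rule uses no measured value, though it was set with earlier results of these data known.

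The tumours (numbered 1 to 4, in no order) came from mice of the C57BL/6J strain that had lost Trp53 in the liver only, genotype Trp53-/-. The mice were not treated. The labels give 4 male mice, which the sex chromosomes of tumours 1 and 4 did not match (below). The reference is described as spleen DNA pooled from 3 littermates of the same sex. The labels give it the genotype Trp53-/- and male sex too, although the labelling protocol calls it liver. Each tumour was hybridized with that reference on its own array, with Cy5 on the tumour and Cy3 on the reference each time. What drives the liver-specific loss is not given in the sources used here, and neither is the share of tumour cells in the tumour DNA.

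In a liver, these genes are expressed by hepatocytes, which secrete their products into the blood. Albumin is the main protein of plasma and carries fatty acids, hormones and drugs. Alpha-fetoprotein is its fetal relative, is silenced in the liver after birth and is a marker of liver cancer when it returns. The assay used here reads DNA and not RNA or protein, so the values say how many copies of each gene the tumour DNA held relative to the reference, and not how much of its product was made.

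The probes were short oligonucleotides of 50 to 60 bases, and 33.3% to 46% of their bases were G or C, against a median of 36.7% over all probes. The probes of Alb and Afp are shown because these neighbouring genes read in opposite directions in tumour 2. Those of Apoa1 and Trf are shown because both lie on chromosome 9, which had a low ratio in tumours 1, 3 and 4 and not in tumour 2. Positions are those of the mouse build mm9 as the array files give them, and the strand is not given there. Capitals mark runs of 6 or more of the same base, and all other bases are in lower case. The Alb probes lie at chr5:90890766-90890825 and chr5:90901671-90901730, the Afp probes at chr5:90924990-90925048 and chr5:90930595-90930654, the Apoa1 probe at chr9:46036880-46036929 and the Trf probes at chr9:103115618-103115677 and chr9:103124643-103124702. Whether each lies in an exon or an intron was not analysed here.
Alb probe 1: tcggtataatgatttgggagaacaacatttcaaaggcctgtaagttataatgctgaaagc
Alb probe 2: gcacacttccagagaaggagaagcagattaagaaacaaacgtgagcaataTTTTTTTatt
Afp probe 1: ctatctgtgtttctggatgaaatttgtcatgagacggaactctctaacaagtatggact
Afp probe 2: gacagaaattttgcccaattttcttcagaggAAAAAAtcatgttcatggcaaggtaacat
Apoa1 probe: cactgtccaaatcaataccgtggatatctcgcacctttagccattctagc
Trf probe 1: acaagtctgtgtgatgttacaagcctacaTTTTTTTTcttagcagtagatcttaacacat
Trf probe 2: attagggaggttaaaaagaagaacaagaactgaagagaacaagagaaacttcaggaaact
The longest stretch that an Alb probe shared with an Afp probe, on either strand, was 7 bases.

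The gene value used throughout is the mean over a gene's probes of log2 of tumour over reference signal, set so that the median autosomal probe of each array reads 0. On this scale 3 copies against 2 in every cell would read 0.585 and 1 copy against 2 would read -1. All 56 spots of the 14 probes were well above background in both channels and none was saturated or marked as uneven. Their signals ran from 425 to 2325 in the tumour channel and from 368 to 1921 in the reference channel.

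The arrays differed in quality, and tumours 1 and 4 did not match their labels on the sex chromosomes. The spread between neighbouring probes (SD, log2) was 0.12, 0.37, 0.15 and 0.15 in tumours 1 to 4, so single probes were least precise in tumour 2. Chromosome X averaged -0.82, -0.054, -0.0061 and 0.84, and chromosome Y 2.22, -0.087, -0.20 and -2.35, although by the labels both channels held male DNA. In tumour 1 X was low and Y high, and in tumour 4 X was high and Y low. The cause was not tested. Over all probes tumours 1 and 4 correlated at -0.61, and over autosomal probes at 0.18. All 9 genes are autosomal, and their values are also given without these tumours. Tumours 1 and 2 shared a slide, as did tumours 3 and 4. The 2 probes of Trp53, the targeted gene, read in different directions in 4 of 4 tumours. The first read -0.53, -0.78, -0.073 and -0.76, and the second 0.14, 0.51, 0.31 and 0.17. Which part of it was deleted is not stated in the labels.

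None of the 9 genes differed from the reference past the threshold. By limma with Benjamini-Hochberg adjustment over 22150 genes, 0 genes passed as higher (0%) and 0 as lower (0%) at an adjusted p of 0.05, while 3387 genes (15.3%) had an unadjusted p under 0.05, and of the 9 genes this held for Trf. The adjusted p values of the 9 genes lay between 0.218 and 0.995. Alb and Ahsg were above 0 in 4 of 4 tumours, as were 14.8% of all genes, and Trf was below 0 in 4 of 4, as were 15% of all genes. In tumours 2 and 3 alone, 4 of the 9 were above 0 in both (32.5% of all genes) and 3 were below 0 in both (33.4% of all genes). Their means there were 0.39 for Alb, -0.29 for Afp, 0.16 for Apoa1, 0.042 for Apob, 0.43 for Apoe, -0.16 for Trf, 0.098 for Ttr, -0.16 for Fga and 0.28 for Ahsg. Over all 4 tumours Apob averaged below 0, and Fga and Apoa1 averaged near 0, at 0.0053 and 0.0024. Alb, Afp, Apoe, Trf, Ttr and Ahsg had the same sign as in tumours 2 and 3 alone. Tumours 2 and 3 enter both means, so the shared sign is no independent check. The median of the 9 mean gene values was 0.0053, and that of all genes was -0.0041. An exact sign-flip permutation test over 4 tumours cannot give a two-sided p below 0.125.

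**Figure D1:**
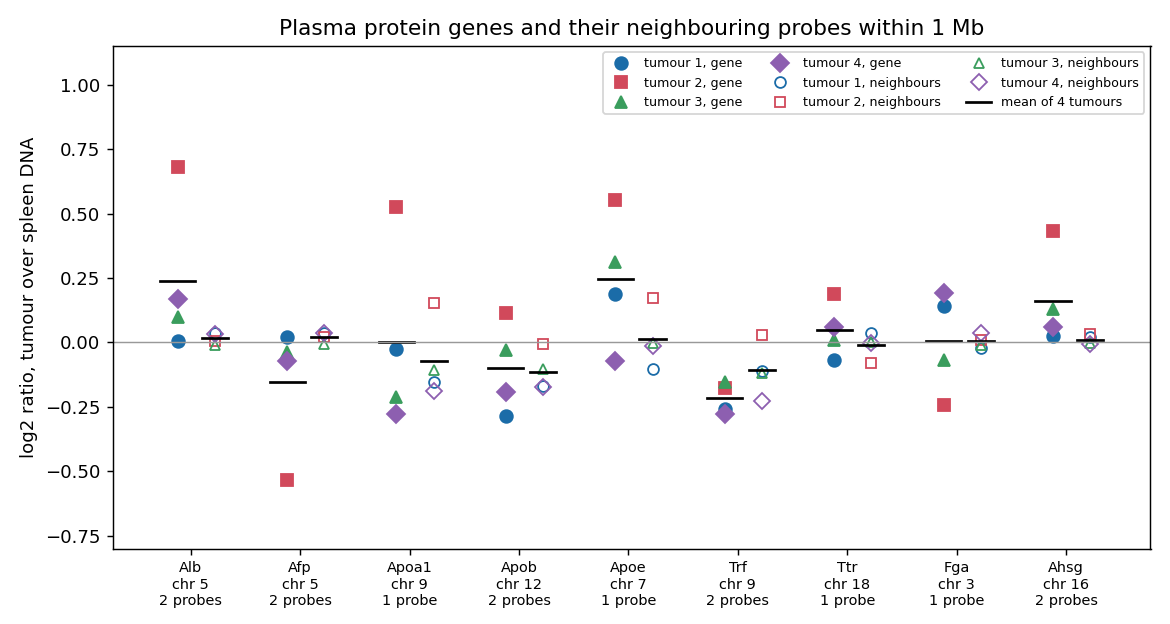
Log2 ratio of tumour over spleen DNA for each of the 9 genes (filled symbols, left) and for the probes within 1 Mb of it (open symbols, right) in tumours 1 to 4, with black lines for the means over the 4 tumours. Except for Trf, the genes, means of 1 or 2 probes, spread more over the tumours than their neighbours, means of 108 to 167 probes. A mean over more probes spreads less by itself. Alb of tumour 2 is highest at 0.68 and Afp of tumour 2 lowest at -0.53, and the 4 values of Trf lie between -0.28 and -0.15.

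Albumin and alpha-fetoprotein lie side by side on chromosome 5, with 23259 bases between the last Alb probe and the first Afp probe. Alb read 0.0059, 0.68, 0.10 and 0.17 in tumours 1 to 4. Its value was high in tumour 2 and near 0 in tumour 1. The mean was 0.24 ± 0.30 (SD, n = 4), above 0 in 4 of 4 tumours, with a limma adjusted p of 0.387 and an exact sign-flip p of 0.125. Without tumour 2 the mean of Alb was 0.091.

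The 140 neighbours of Alb, the probes within 1 Mb of the gene on either side, stayed close to 0. The gene minus its neighbours was -0.032, 0.68, 0.11 and 0.14 in tumours 1 to 4, which is the pattern of the gene itself. The neighbours alone read 0.038, 0.0049, -0.0088 and 0.033. The mean difference was 0.22 ± 0.31 (SD, n = 4; limma adjusted p = 0.410). Both Alb probes were high in tumour 2, at 0.59 and 0.77, above 93.6% and 98.6% of the neighbouring probes of that array. In tumour 4 they differed, at 0.036 and 0.30.

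Afp read 0.020, -0.53, -0.037 and -0.071 in tumours 1 to 4. Its value was low in tumour 2 and close to 0 in the other 3. The mean was -0.16 ± 0.25 (SD, n = 4), with a limma adjusted p of 0.477 and an exact sign-flip p of 0.25, and without tumour 2 it was -0.029. In tumour 2 the probes of Afp read -0.41 and -0.65, and 11.5% and 4.35% of the neighbouring probes lay below them. Relative to its neighbours the gene was lower in 4 of 4 tumours, by a mean of -0.18 ± 0.26 (SD, n = 4; limma adjusted p = 0.421). The neighbours averaged 0.022.

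The difference between the adjacent genes was examined after their values were seen. Alb minus Afp was -0.014, 1.21, 0.14 and 0.24 in tumours 1 to 4. It was large in tumour 2 alone, and it averaged 0.39 ± 0.56 (SD, n = 4; exact sign-flip p = 0.25), or 0.12 without that tumour. Under normexp background correction it was 0.23, 1.18, 0.36 and 0.57, above 0 in 4 of 4 tumours (mean 0.59 ± 0.42, SD, n = 4; exact sign-flip p = 0.125). With the intensity trend removed it was -0.027, 1.07, 0.088 and 0.093 (exact sign-flip p = 0.25). With the probe GC trend removed it was -0.0063, 1.26, 0.14 and 0.25 (exact sign-flip p = 0.25). In both, tumour 1 stayed below 0. The 3 probes between the genes spread from -0.12 to 0.94 in tumour 2, whose probes were the least precise. No segment was called at either gene in any tumour, and the segments that held both read 0.019, -0.046, -0.016 and 0.017. Afm, the gene of afamin, the vitamin E binding relative of albumin in the same cluster, read 0.096, -0.024, -0.14 and -0.019.

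**Figure D2:**
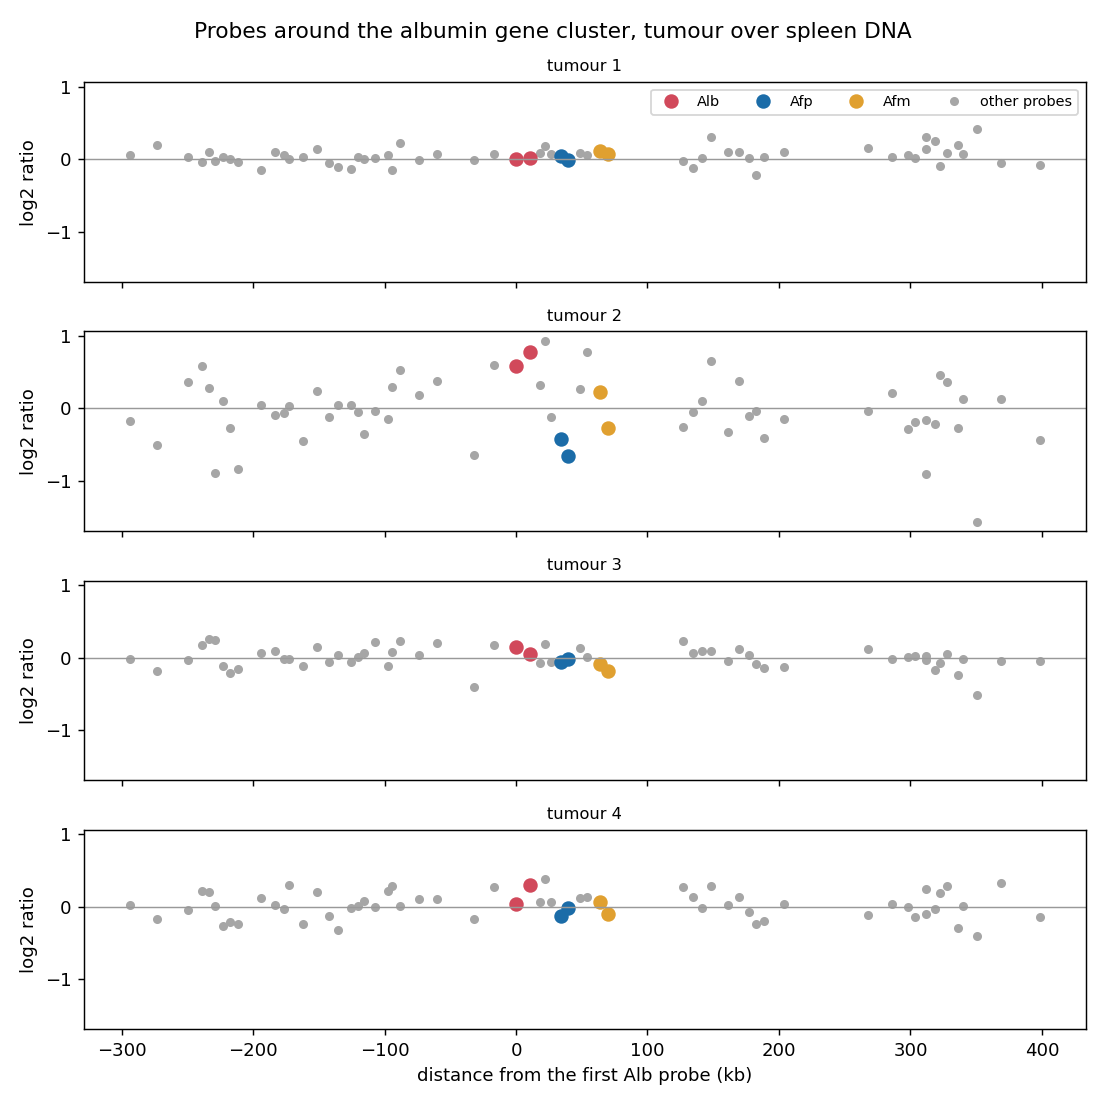
Log2 ratio of tumour over spleen DNA of single probes against the distance from the first Alb probe in kb, 1 panel per tumour, with the probes of Alb (red), Afp (blue) and Afm (orange) and all other probes in grey. In tumour 2 the Alb probes stand at 0.59 and 0.77 and the Afp probes at -0.41 and -0.65 among grey points that scatter as widely, and in tumour 1 the Alb and Afp probes lie between -0.0054 and 0.045.

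Transferrin, the iron carrier of plasma, lies on chromosome 9 and had the most even values of the 9 genes. Trf read -0.26, -0.18, -0.15 and -0.28 in tumours 1 to 4. All 4 tumours were below 0, and none stood apart. The mean was -0.22 ± 0.061 (SD, n = 4), a ratio of 0.861, with an unadjusted limma p of 0.0042, an adjusted p of 0.218 and an exact sign-flip p of 0.125. The means on both slides were -0.22, as was the mean of all 4. Centred on the median of its chromosome, the mean of Trf was -0.10. For a mean of 2 probes, the spread between neighbouring probes gives an SD of 0.085, 0.26, 0.10 and 0.11 in tumours 1 to 4. The Trf value of tumour 2 was smaller in size than that SD, and those of tumours 1, 3 and 4 were larger.

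The probes around Trf were low in 3 of the 4 tumours. Trf minus its neighbours was -0.15, -0.20, -0.036 and -0.050, and the 158 neighbours themselves read -0.11, 0.028, -0.12 and -0.23. The gene lay below its neighbours in 4 of 4 tumours, by a mean of -0.11 ± 0.080 (SD, n = 4; limma adjusted p = 0.376; exact sign-flip p = 0.125). The neighbours averaged -0.11 ± 0.10 (SD, n = 4; exact sign-flip p = 0.25). Of the Trf probes, the first read -0.27, -0.33, -0.11 and -0.47, and the second read -0.24, -0.018, -0.20 and -0.084. The second probe was close to 0 in tumours 2 and 4, where the first was at its lowest. Trf was below the rest of chromosome 9 too, with differences of -0.082, -0.17, -0.032 and -0.082 (mean -0.092 ± 0.058, SD, n = 4; exact sign-flip p = 0.125).

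Apoa1, the main protein of high-density lipoprotein, lies on the same chromosome and varied more. It read -0.026, 0.52, -0.21 and -0.28 in tumours 1 to 4. The value was high in tumour 2 and low in tumours 3 and 4, which share a slide, and the slide means were 0.25 and -0.24. The mean of 0.0024 ± 0.36 (SD, n = 4; limma adjusted p = 0.995; exact sign-flip p = 1) was -0.17 without tumour 2. All of these values come from 1 probe.

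The 108 neighbours of Apoa1 were likewise highest in tumour 2 and lowest in tumour 4, with less spread. Apoa1 minus its neighbours was 0.13, 0.37, -0.10 and -0.090 (mean 0.076 ± 0.22, SD, n = 4; limma adjusted p = 0.657). The neighbours themselves read -0.15, 0.15, -0.11 and -0.19 (mean -0.073 ± 0.155, SD, n = 4; exact sign-flip p = 0.5). Against the rest of chromosome 9, 8372 probes with a mean of -0.12 ± 0.086 (SD, n = 4), Apoa1 differed by 0.13 ± 0.29 (SD, n = 4; exact sign-flip p = 0.625). The rest of the chromosome read -0.17, -0.0032, -0.12 and -0.20 in tumours 1 to 4, so it was not low in tumour 2.

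Apoa1 in tumour 4 was the only one of the 36 calls over 9 genes and 4 tumours that was a gain or a loss. It lay in a called loss of 32.4 Mb on chromosome 9, with a segment mean of -0.21 over 2305 probes. In tumours 1 to 4 the share of autosomal genes called lost was 0.108%, 0.319%, 0.00937% and 5.55%, and the share called gained was 4%, 4.59%, 0.0234% and 2.18%. A segment was called at a mean at or beyond 0.2 in size with at least 5 probes. Trf in tumour 4 lay in a segment of -0.197, just short of that, so the 2 genes differ in call and hardly in segment mean.

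Apob, whose product is the structural protein of very-low-density and low-density lipoproteins, had probes at chr12:7992875-7992931 and chr12:8007751-8007810. Apob read -0.28, 0.12, -0.031 and -0.19 in tumours 1 to 4. It was low in tumours 1 and 4 and above 0 in tumour 2. The mean was -0.098 ± 0.18 (SD, n = 4; limma adjusted p = 0.539; exact sign-flip p = 0.375). It was -0.035 without tumour 1, -0.17 without tumour 2, -0.24 under normexp and -0.021 with the intensity trend removed. The neighbours (129 probes) were below 0 in 4 of 4 tumours, at -0.17, -0.0076, -0.10 and -0.17 (mean -0.11 ± 0.077, SD, n = 4; exact sign-flip p = 0.125). Apob minus those neighbours averaged 0.015 ± 0.11 (SD, n = 4; limma adjusted p = 0.882). The segments around the gene read -0.19 in tumour 1 and -0.17 in tumour 4, neither of them called. Chromosome 12 as a whole averaged -0.12 ± 0.067 (SD, n = 4), at -0.17, -0.034, -0.11 and -0.18 in tumours 1 to 4.

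**Figure D3:**
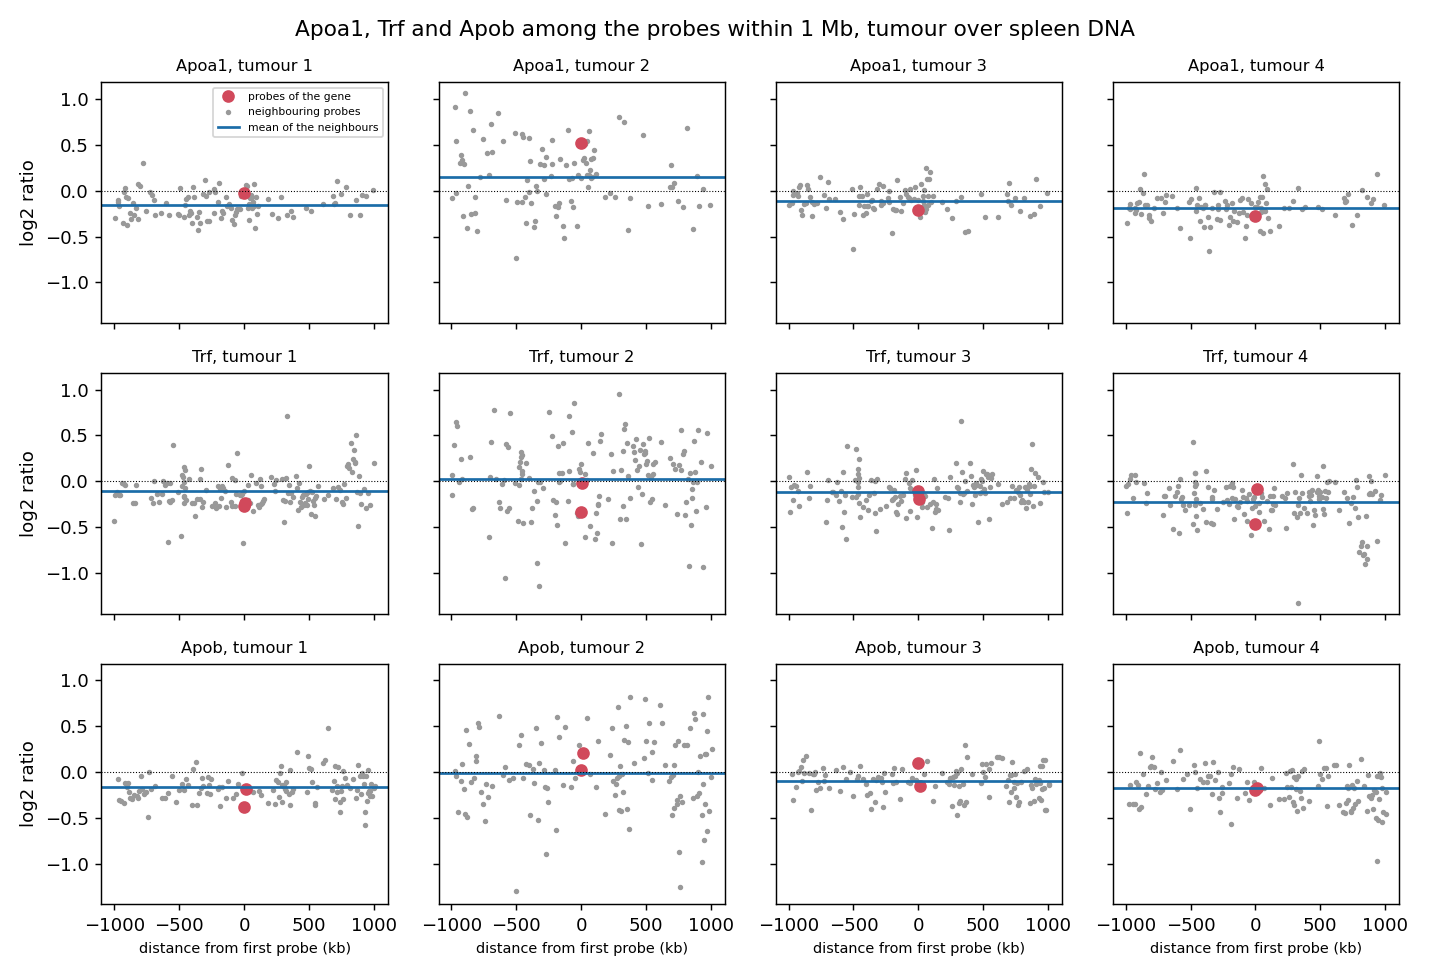
Log2 ratio of tumour over spleen DNA of the probes of Apoa1, Trf and Apob (red, rows of panels) and of neighbouring probes within 1 Mb (grey) against the distance from the gene's first probe in kb, 1 column per tumour, with a blue line at the mean of the neighbours. The blue lines lie between -0.10 and -0.23 in tumours 1, 3 and 4 and at 0.15, 0.028 and -0.0076 in tumour 2, and the red points lie within the scatter of the grey ones.

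Apoe, the ligand by which lipoprotein remnants are taken up, had the highest mean of the 9 genes beside Alb, from a single probe at chr7:20283139-20283198. It read 0.19, 0.55, 0.31 and -0.072 in tumours 1 to 4. It was above 0 in 3 tumours and slightly below in tumour 4. The mean was 0.24 ± 0.26 (SD, n = 4; limma adjusted p = 0.347; exact sign-flip p = 0.25), and it was 0.14 without tumour 2, likewise 0.14 with the intensity trend removed, and 0.38 under normexp. Relative to its 148 neighbours it was 0.29, 0.38, 0.31 and -0.059 (mean 0.23 ± 0.20, SD, n = 4; limma adjusted p = 0.376), and the neighbours averaged 0.014. The probe stood above 92.6%, 85.1%, 97.3% and 39.2% of them in tumours 1 to 4.

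Ahsg, the gene of fetuin A, a plasma inhibitor of calcification, had probes at chr16:22892339-22892390 and chr16:22895829-22895888. It read 0.024, 0.43, 0.13 and 0.062 in tumours 1 to 4. All were above 0, and tumour 2 was the highest. The mean was 0.16 ± 0.19 (SD, n = 4; limma adjusted p = 0.383; exact sign-flip p = 0.125), and it was 0.071 without tumour 2 and 0.081 under normexp. Both probes were highest in tumour 2, at 0.52 and 0.34. Ahsg minus its neighbours was above 0 in 4 of 4 tumours, with a mean of 0.15 ± 0.17 (SD, n = 4; limma adjusted p = 0.388), and the 150 neighbours averaged 0.011.

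Ttr (chr18:20827013-20827072) and Fga (chr3:82832421-82832480), each with 1 probe, went either way. Ttr, the carrier of thyroid hormone and of retinol-binding protein, read -0.068, 0.19, 0.0078 and 0.062 (mean 0.048 ± 0.11, SD, n = 4; limma adjusted p = 0.685). Fga, which encodes a chain of the clotting protein fibrinogen, read 0.14, -0.24, -0.069 and 0.19 (mean 0.0053 ± 0.20, SD, n = 4; limma adjusted p = 0.982). Fga was above 0 in tumours 1 and 4 and below in tumours 2 and 3. Relative to neighbours Ttr averaged 0.059 and Fga 0.0011, with limma adjusted p values of 0.645 and 0.995.

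Over the 9 genes, the order of the mean gene values was Apoe, Alb, Ahsg, Ttr, Fga, Apoa1, Apob, Afp and Trf. In 7 of the 8 pairs next to each other in this order the gap was under the SD of either gene over the tumours. The exception was Ahsg and Ttr, whose gap of 0.11 was above the SD of Ttr (0.108) and under that of Ahsg (0.19). Tumour 2 held the largest value, in size, of 7 of the 9 genes, as it did for 62.4% of autosomal genes. Values at or beyond 0.2 in size were seen for 2, 6, 2 and 2 of the 9 genes in tumours 1 to 4, against 16%, 48.3%, 10.8% and 21.3% of all genes. Against the neighbours, 1 gene was higher in 4 of 4 tumours (15.6% of all genes) and 2 were lower in 4 of 4 (13.1% of all genes). By limma 0 of 22143 genes differed from their neighbours in either direction (0% each), with 2913 (13.2%) at an unadjusted p under 0.05.

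Genes of plasma proteins, their receptors and regulators of Afp, with the 9 genes among them, were taken from 8 lists. Of 91 entries 79 had a probe. In limma 0 of the 79 passed as higher and 0 as lower. Of the 79, 11 had an unadjusted p under 0.05, against 15.3% of all genes. The median of their mean gene values was 0.048, against -0.0041 over all genes. Above 0 in 4 of 4 tumours were 16 of them, or 20.3%, against 14.8% of all genes, and below 0 in 4 of 4 were 4, or 5.06%, against 15% of all genes. Their median relative to neighbouring probes was 0.051, against 0.0043 over all genes and 0.059 over the 9 genes, which are part of the 79. The 16 genes above 0 included C6, C9 and Zhx2 on chromosome 15, and Ahsg and Fetub, which lie next to each other. The listed genes are therefore not independent, and whether the lists differ from all genes was not tested.

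In the albumin family 0 of 4 genes were called, and the largest mean was that of Alb itself. Among 12 apolipoprotein genes Apoc2, the cofactor of lipoprotein lipase, had the largest mean. It lies near Apoe and read 0.26, 1.25, 0.22 and -0.20 (mean 0.39 ± 0.61, SD, n = 4; limma adjusted p = 0.443). Like Apoe it was above 0 in tumours 1, 2 and 3 and below in tumour 4. Beside Apoa1, the genes Apoa4 and Apoa5 lay in the same called loss of tumour 4. Apoa4, an apolipoprotein of intestine and liver, read 0.067, 0.33, -0.29 and -0.17. Apoa5, which promotes the breakdown of triglycerides, read -0.32, 0.54, -0.15 and -0.23. These 3 genes were above 0 in tumour 2 and below 0 in tumours 3 and 4.

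The fibrinogen genes, next to each other on chromosome 3, did not share a direction. Fgb, the beta chain, read 0.042, -0.13, -0.16 and -0.094, and Fgg, the gamma chain, read 0.075, 0.46, 0.040 and 0.0047. In tumour 2 Fga and Fgb were below 0 and Fgg above it. The largest mean of the 13 genes of that list was that of Vtn, which encodes the adhesion protein vitronectin, at 0.43 ± 0.78 (SD, n = 4; limma adjusted p = 0.491). It rested on tumour 2, at 1.59, and the other 3 lay between 0.011 and 0.051.

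Next to Ahsg on chromosome 16, the second fetuin gene Fetub read 0.29, 0.31, 0.080 and 0.15 (mean 0.21 ± 0.11, SD, n = 4; limma adjusted p = 0.245). Hrg, the histidine-rich glycoprotein, read -0.040, 0.68, 0.29 and 0.071, the largest mean of its list of 8 at 0.25 ± 0.32 (SD, n = 4; limma adjusted p = 0.387). Kng1, the precursor of bradykinin, averaged -0.024. Orm1, an acute-phase carrier, had the largest mean of the 9 transport genes at 0.25 ± 0.26 (SD, n = 4; limma adjusted p = 0.342), and it was above 0 in 4 of 4 tumours.

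Called gains were seen at 3 of the 79 listed genes, all on chromosome 15 and each in tumours 1, 2 and 4. In these tumours 4%, 4.59% and 2.18% of all autosomal genes were called gained. C6 and C9, components of the complement membrane attack complex, averaged 0.21 ± 0.053 and 0.22 ± 0.079 (SD, n = 4; limma adjusted p = 0.218 for each). Zhx2, a repressor of Afp in adult mouse liver, read 0.26, 0.25, 0.13 and 0.26 over 12 probes (mean 0.22 ± 0.064, SD, n = 4; limma adjusted p = 0.218). All 4 tumours were high at Zhx2, and it exceeded its neighbours by 0.030. Chromosome 15 as a whole averaged 0.22. Among the other regulators Foxa3, a hepatocyte transcription factor 1 Mb or less from Apoe, averaged 0.059.

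Called losses were seen at 6 of the 79 listed genes, in tumour 4 alone, where 5.55% of all autosomal genes were called lost. The 6 included Apoa1, Apoa4 and Apoa5 on chromosome 9. Among 12 receptor genes the largest mean was that of Asgr1, a subunit of the asialoglycoprotein receptor, at 0.28 ± 0.22 (SD, n = 4; limma adjusted p = 0.279). It was above 0 in 4 of 4 tumours.

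**Figure D4:**
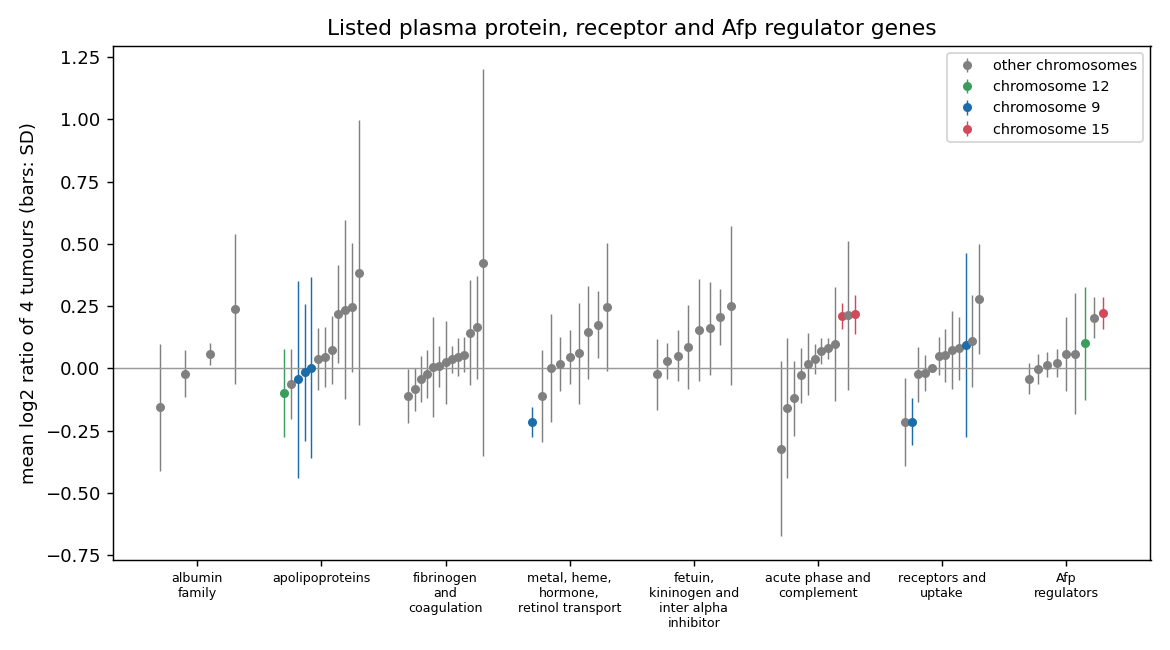
Mean log2 ratio of tumour over spleen DNA over the 4 tumours for each of the 79 listed genes, grouped by list on the horizontal axis, with bars for the SD and colours for chromosomes 15, 9 and 12. The genes of chromosome 15 lie at 0.21 and 0.22 with short bars, and the highest mean, 0.43 for Vtn, has an SD of 0.78.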

How the data were processed

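Genomic DNA of 4 liver tumours was compared with pooled spleen DNA on 2-colour Agilent arrays. The deposited processed intensity was made with Agilent Feature Extraction 12.0.1.1, per the file headers (12.0.0 per the submitters' processing notes), with background subtraction and dye normalization, and positions are on mm9. The deposited log10 ratio and the deposited mean and background intensity served as alternatives only. No correction for probe sequence is recorded there.

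From these, log2 of tumour over reference was computed per spot, uneven and outlying spots were left out, repeated spots were averaged, and the autosomal median of every array was set to 0. Neighbours were the placed probes within 1 Mb on either side of a gene, at least 10. Gene values, and gene values minus neighbours, were tested against 0 with limma 3.58.1 in R 4.3.3 (an intercept and eBayes, Benjamini-Hochberg adjustment over all genes). This leaves out the spread of the pooled reference, and the 4 arrays limit the precision. For the members an exact permutation test, two-sided, flipped the signs of the tumours. Segments came from penalised least squares (penalty factor 3; gaps under 5 probes joined), and the middle probe of a gene decided its call. Both steps were also run on simulated data, and the outcome is not reported here. Those runs therefore do not show how either step performs on arrays of unequal precision or at segment means near the call threshold. Python 3.11.15 with numpy 2.4.6 and pandas 2.3.3 was used.

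The 9 genes and the 8 lists were chosen with earlier results of these data known. Named genes were the 9, listed genes within 1 Mb of them and, per list, those called in at least 2 tumours or else the one with the largest mean. A search for the genes most like a member needed 3 probes, which no member had. One list entry was matched to its array name through a RefSeq synonym (assembly GRCm38, names only). Some genes examined are not reported here. The alternatives tried are given after the results.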

Additional observations from a re-analysis of the deposited data

Results flagged for a closer look

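In 43 sets of 4 tumour values (the 9 genes, the named list genes and the comparisons with neighbours), 1 tumour stood far from the other 3 in 6 sets, by its gap to the nearest value against the whole range. For 4 equally precise values, chance gives such a gap in about 1 in 20 sets. Here the tumours differed in precision, and Afp entered both as a gene value and relative to its neighbours. Some list genes were named for their largest mean, so the 6 sets cannot be set against that rate. Afp stood low in tumour 2, at -0.53 as a gene value and at -0.56 relative to its neighbours. Fgg stood high in tumour 2, at 0.46, and Vtn stood high in the same tumour, at 1.59. Foxa3 stood low in tumour 1, at -0.16, and Zhx2 was lower in tumour 3 than in the others, at 0.13. Of the 6 sets, 4 stood out in tumour 2, where the spread between neighbouring probes was 0.37. The part of that spread in these values was not tested.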

How the results depend on the processing

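No member passed limma under any alternative: the lowest adjusted p was 0.0789 against 0 and 0.105 against the neighbours. Alb, Afp, Apoe, Trf and Ahsg kept their direction in both comparisons under every alternative run. Members near 0 did not. Against 0, Apoa1 was -0.031 with the intensity trend removed, -0.16 with the probe GC trend removed and -0.021 centred on the mode. Apob was 0.020 centred on the chromosome median, Ttr was -0.0048 with the GC trend removed, and Fga was -0.026 under normexp and -0.018 centred on the mode. Relative to neighbours, Apoa1 was -0.069 and Apob -0.0079 with the GC trend removed. Apob was also -0.098 under normexp and -0.0059 with a 0.5 Mb window, and Fga was -0.040 under normexp and -0.00039 against the median of its neighbours. The neighbours of Alb, Afp, Apoe and Fga were -0.0038, -0.0012, -0.0057 and -0.011 with a 2 Mb window, and those of Fga -0.0072 with 0.5 Mb. Apob minus the rest of chromosome 12 was -0.072 under normexp. The cause was not tested.

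Leaving out each tumour in turn gave ranges of -0.17 to 0.095 for Apoa1 and -0.057 to 0.089 for Fga against 0. Relative to neighbours the ranges were -0.022 to 0.14 for Apoa1, -0.021 to 0.059 for Apob, -0.011 to 0.11 for Ttr and -0.053 to 0.087 for Fga. The neighbours themselves ranged from -0.039 to 0.053 for Apoe, from -0.027 to 0.011 for Ttr and from -0.0068 to 0.013 for Fga. Apoa1 minus the rest of chromosome 9 ranged from -0.0075 to 0.20, and Apob minus the rest of chromosome 12 from -0.014 to 0.073.

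The calls depended on the setting, as did those of all autosomal genes. In tumours 1 to 4, 10.4%, 2.65%, 9.61% and 10.2% of them were called lost at a threshold of 0.1, and 9.68%, 1.04%, 0% and 9.47% under normexp. At a threshold of 0.1, 5.73%, 7.48%, 3.98% and 4.11% were called gained. In tumour 4 the share called lost was 0.0234% at a threshold of 0.3 and 1.57% with the intensity trend removed. It was 6.18% at a penalty factor of 1.5 and 4.38% at 6. The 9 genes had 1 lost call, and 9 at a threshold of 0.1, 0 at 0.3, 2 at a penalty factor of 1.5, 2 at 6, 6 under normexp and 0 with the intensity trend removed. The listed genes had 9 gained calls, 15 at a threshold of 0.1 and 0 at 0.3. They had 6 lost calls, 27 at 0.1, 0 at 0.3, 18 under normexp and 1 with the intensity trend removed. Trf, just short of the threshold in tumour 4, was called lost there at penalty factors of 1.5 and 6.

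Of the 9 gene values, that of Afp moved most with the processing, from -0.35 under normexp to -0.032 with the intensity trend removed. Genes with an unadjusted p under 0.05 numbered 6745 against 0 under normexp and 5464 with the slide as a random block, whose within-slide correlation of -0.31 narrows the standard error. Each value was a ratio of tumour over reference from 1 array, so tumour and reference were already compared within the array. No further pairing was possible because the tumours form 1 group and the labels give no replicate numbers. Each gene had 1 or 2 probes, and the SD between neighbouring probes of 0.12 to 0.37 limits what 1 tumour's value can show.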
